A study of Mus musculus with 12 samples.

Results

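The metal ion solute carriers are membrane proteins that move iron, manganese, copper, zinc and magnesium into or out of cells and their compartments. They were taken as the genes whose mouse symbol begins with Slc11a, Slc30a, Slc31a, Slc39a, Slc40a or Slc41a, which gave 33 of the 54838 genes counted. Of these, 32 had at least 10 counts in at least 3 of the 12 libraries and are described here, all 32 passed the filter on low counts, and 27 had a mean of at least 1 CPM (counts scaled to the library's size). The pseudogene Slc39a1-ps reached 10 counts in 1 library only and was left out. Just inside that limit, Slc30a8 reached it in 3 libraries, all of them unlesioned, Slc39a5 in 9, Slc30a10 in 10 and Slc30a2 in 11, and the other members in all 12.

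Spinal cord was taken at postnatal day 60 from control mice, Olig1+/+;Tet1fl/fl (labelled wildtype), and from Tet1 mutants, Olig1cre/+;Tet1fl/fl. Both genotypes carried the floxed Tet1 alleles, and the mutant also carried Cre at 1 of its Olig1 alleles, so that recombination was directed to cells of the Olig1 lineage only. In each genotype 3 libraries came from unlesioned tissue and 3 from tissue collected 4 days after an injection of 1% lysolecithin (LPC), a detergent-like lipid that strips myelin from axons at the injected site (4dpl). The unlesioned tissue was the opposite side of the cord, and cells were enriched on a Percoll gradient and not sorted. The labels do not state which libraries share a mouse, and p-values therefore measure the spread between libraries.

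Metals reach cells through carriers of distinct direction. SLC11 proteins carry ferrous iron and manganese with protons, SLC40A1 (ferroportin) is the exporter of iron, and SLC31 proteins carry copper. SLC39 (ZIP) proteins bring zinc into the cytosol from outside or from organelles, SLC30 (ZnT) proteins take it from the cytosol to organelles or out of the cell, and SLC41 proteins carry magnesium. In white matter oligodendrocytes are rich in iron, and after demyelination phagocytes take up myelin debris together with its metals. The described members were 2 of SLC11, 1 of SLC40, 2 of SLC31, 14 of SLC39, 10 of SLC30 and 3 of SLC41.

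Several genes of zinc handling are switched on through metal response elements, whose core letters are TGCACNC or TGCGCNC and are bound by the zinc sensor MTF1. These letters were searched on both strands, with overlaps kept, in the 250 bases before each start given in RefSeq (GRCm38.p6). A gene could have more than 1 such window. The printed windows of Slc39a8 and Slc41a1 lie inside the gene extents given further below, and that of Slc41a2 overlaps its extent. A promoter was given for 26 of the 32 members, and not for Slc11a2, Slc30a8, Slc39a4, Slc39a6, Slc39a14 and Slc40a1. At least 1 match was present in 14 of the 26 members and in 15 of their 31 promoter windows (48.4%), against 21.4% of 32851 promoters of the same length. The matches describe letters and not bound sites. Printed below are the windows with a match of the 4 members that rose in the control and hold one. That of Slc30a10, which fell in the average over genotypes, is also printed, and the capitals mark the matches. In Slc30a10 a pair of matches on opposite strands overlaps, and its other match lies closer to the start.
Slc39a8 at chr3:135825407-135825656, plus strand: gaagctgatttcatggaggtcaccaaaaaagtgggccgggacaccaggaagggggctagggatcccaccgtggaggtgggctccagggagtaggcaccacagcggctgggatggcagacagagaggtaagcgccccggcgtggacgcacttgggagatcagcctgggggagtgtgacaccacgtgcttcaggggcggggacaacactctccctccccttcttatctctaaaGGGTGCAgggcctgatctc
Slc30a5 at chr13:100833428-100833677, minus strand: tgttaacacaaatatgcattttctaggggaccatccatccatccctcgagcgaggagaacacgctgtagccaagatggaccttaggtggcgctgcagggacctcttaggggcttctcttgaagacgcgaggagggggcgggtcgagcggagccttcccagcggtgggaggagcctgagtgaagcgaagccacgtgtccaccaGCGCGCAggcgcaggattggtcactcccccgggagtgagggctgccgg
Slc41a1 at chr1:131827762-131828011, plus strand: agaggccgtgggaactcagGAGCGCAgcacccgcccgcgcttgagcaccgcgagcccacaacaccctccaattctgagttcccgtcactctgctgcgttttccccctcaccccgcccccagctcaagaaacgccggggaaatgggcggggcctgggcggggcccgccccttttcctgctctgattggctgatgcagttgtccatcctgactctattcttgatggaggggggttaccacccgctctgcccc
Slc41a2 at chr10:83337818-83338067, minus strand: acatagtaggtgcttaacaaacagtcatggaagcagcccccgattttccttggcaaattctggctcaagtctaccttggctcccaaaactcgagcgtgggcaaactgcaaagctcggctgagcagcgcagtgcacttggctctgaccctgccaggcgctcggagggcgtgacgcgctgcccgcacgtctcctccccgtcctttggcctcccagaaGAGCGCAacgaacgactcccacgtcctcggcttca
Slc30a10 at chr1:185454598-185454847, plus strand: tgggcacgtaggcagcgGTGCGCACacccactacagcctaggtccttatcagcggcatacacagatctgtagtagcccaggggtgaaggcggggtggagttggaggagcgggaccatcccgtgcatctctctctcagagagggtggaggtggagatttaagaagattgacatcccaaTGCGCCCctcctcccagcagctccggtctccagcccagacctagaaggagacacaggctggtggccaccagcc
Of the 11 members that rose in the control, 8 had a promoter and 4 of these held a match in at least 1 window. Counting any window, the letters were as often absent as present among them. Slc39a8 held no match in its other window, 135825029-135825278, which lies directly before the gene extent given further below.

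Total counts were between 34805086 and 67251544 per library, and the members together took between 0.0664% and 0.158% of them, so that counting error was small except for the rarest members. Tet1, read over the whole gene, was at 15.03, 14.9 and 18.3 CPM in the control unlesioned libraries and at 16.4, 9.94 and 12.1 CPM in the mutant ones. At 4dpl it was at 12.5, 11.7 and 12.04 CPM in the control and at 13.4, 10.9 and 21.5 CPM in the mutant, whose mean was higher. Tet1 did not separate the genotypes, so the genotype is taken from the labels. The 10 oligodendrocyte markers summed to 16758 to 21101 CPM in the control unlesioned group and were highest in mutant 4dpl replicate 3, at 69830.2 CPM. Neutrophil markers (S100a8, S100a9 and 3 others) summed to between 14261 and 77405 CPM, and erythroid markers to between 12099.6 and 99957 CPM. Neutrophil markers were highest in control unlesioned replicates 1 and 2, mutant unlesioned replicate 2 and mutant 4dpl replicate 2, and erythroid markers in control unlesioned replicates 1 and 2. No marker of any list was at 0 in a library.

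Per kilobase of exon (RPKM), Slc11a1 and Slc31a2 stood at the head of the members, with means over the 12 libraries of 66.3 and 45.4 RPKM. Slc40a1, Slc31a1 and Slc39a11 followed at 20.1, 16.9 and 16.6 RPKM, and the spread between libraries of these genes overlapped. The most abundant SLC39 member was Slc39a11, the most abundant SLC30 member was Slc30a5 (8.34 RPKM) and the most abundant SLC41 member Slc41a3 (7.99 RPKM). At the other end Slc39a2, Slc30a3, Slc39a5, Slc30a2, Slc30a8 and Slc30a10 had means between 0.0843 and 0.323 RPKM. Unlesioned, Slc11a1 was at 41.96 ± 24.6 RPKM (SD, n = 3) in the control, and Slc31a2 at 40.8 ± 21.04 RPKM (SD, n = 3), so neither led the other there. At 4dpl in the control Slc11a1 was at 109.6 ± 20.5 RPKM (SD, n = 3) and Slc31a2 at 48.6 ± 8.08 RPKM (SD, n = 3), and the 3 libraries of each gene no longer overlapped.

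**Figure D1:**
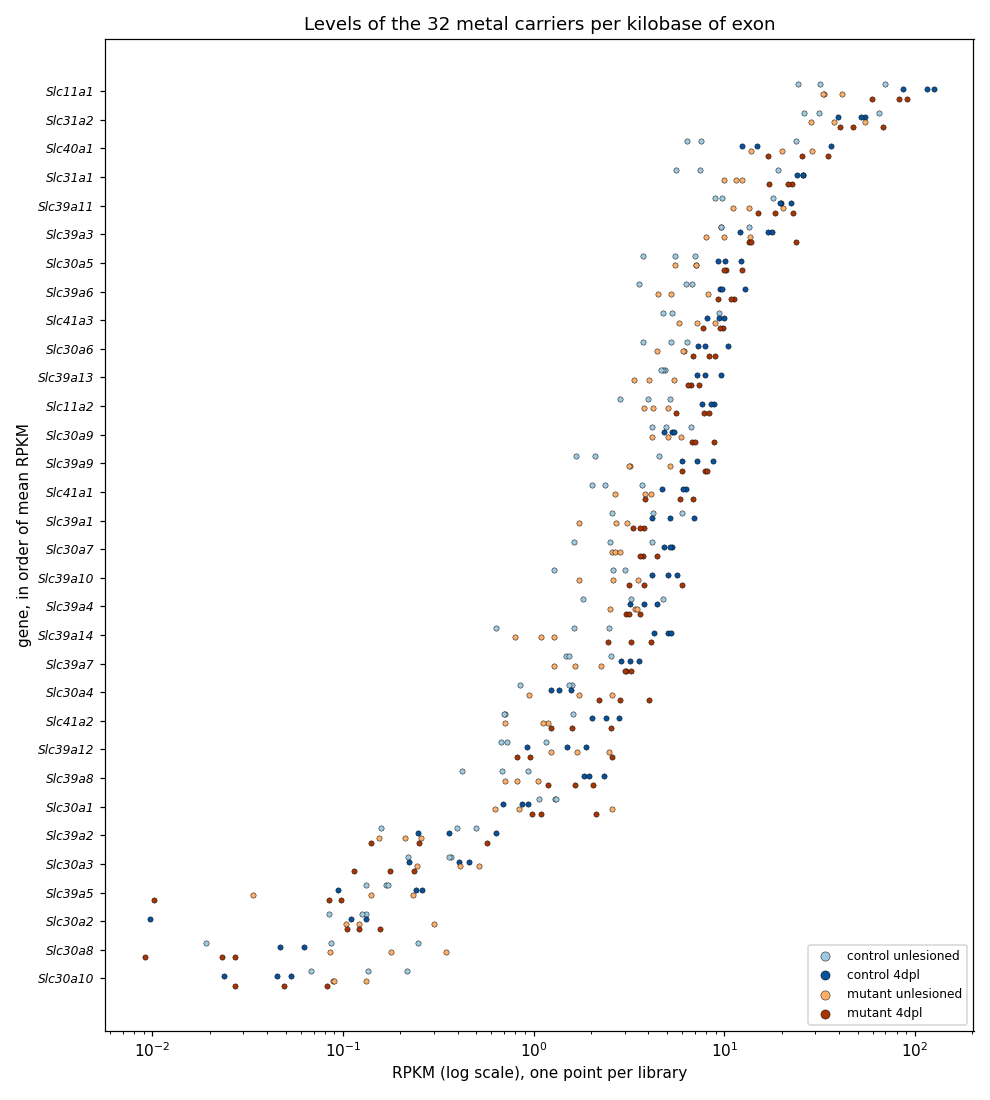
Level of each of the 32 members in RPKM on a log axis, 1 point per library coloured by group, with genes in order of their mean. Slc11a1 and Slc31a2 lie highest, with means of 66.3 and 45.4 RPKM, and Slc30a10 lowest at 0.0843 RPKM. The library in which Slc30a8 was at 0 is not drawn.

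The first question was which carriers changed at 4dpl in the control. In the control 11 of the 32 members rose and none fell, where a gene was called if edgeR's quasi-likelihood test over 31109 genes gave a raw p under 0.01 and, after Benjamini-Hochberg adjustment, a p under 0.05. They were both SLC11 genes, Slc31a1 of the copper carriers, Slc39a6, Slc39a8, Slc39a9, Slc39a13 and Slc39a14 among the zinc importers, Slc30a5 among the zinc exporters, and Slc41a1 and Slc41a2 among the magnesium carriers. The background was 5.12% of all genes called up and 5.01% called down, and 9.76% called up among the 16256 genes with a mean of at least 1 CPM, where all 11 lie. The median log2 fold change was 0.75 over the members, -0.36 over all genes and 0.25 over genes of at least 1 CPM, where the members' own median was 0.79. Of the 32, 27 were above 0, and in 16 the 3 lesioned libraries all exceeded the 3 unlesioned ones. Of all genes 16.5% did so, and of the 16256 genes of at least 1 CPM, which hold these 16, 4927 did. The count of 11 rested on single libraries. It was 0 without control unlesioned replicate 2 or 3 or control 4dpl replicate 1 or 2, where 15, 14, 15 and 17 members still had an unadjusted p under 0.05. In these 4 fits 1, 81, 3 and 2 genes of the whole table were called up. The members' count was 3 without mutant unlesioned replicate 3, where 1.54% of all genes were called up. The count was 6 without control 4dpl replicate 3 (2.76% of all genes called up) and 7 without mutant 4dpl replicate 1 or 2 (3.13% and 2.99%). It was 18 without control unlesioned replicate 1, where 12.2% of all genes were called up. That library held the phagocyte marker Arg1 at 407 CPM, against 15.04 and 20.3 CPM in its fellows and 129 to 432 CPM in control 4dpl libraries. Its summed phagocyte markers, 23772 CPM, stayed below the 54174 CPM or more of control 4dpl libraries. Its part in the change of count was not tested. Slc11a2, Slc39a8 and Slc39a14 were lost only without the 4 libraries that gave a count of 0. Slc41a2 was lost in 11 of the 12 omissions, Slc39a6 in 9, and Slc31a1 and Slc39a13 in 8 each.

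The same lesion in the mutant gave no called member. By edgeR 0 of 32 were called in either direction, where 7 of 31109 genes (0.0225%) were called up and 35 (0.113%) down, and 0.0431% up among genes of at least 1 CPM. At an unadjusted p under 0.05 there were 16 members higher and 2 lower. By DESeq2 and by edgeR with its newer option Slc11a1 and Slc39a14 were called up and Slc30a8 down, and by voom with sample weights 10 were called up. Of all genes DESeq2 called 4.28% up and 12.7% down there, the newer option 4.42% up and 9.82% down, and voom 11.2% up. Without control unlesioned replicate 1 edgeR called 9, without mutant unlesioned replicate 1 it called 4, and without control unlesioned replicate 2 it called 1. Of all genes these fits called 7.72%, 6.36% and 0.069% up. The median log2 fold change of the members in the mutant was 0.60, against -0.18 for all genes and 0.40 for genes of at least 1 CPM. In 15 members all lesioned libraries lay above all unlesioned ones, and 18.8% of all genes did so, or 5645 of the 16256 genes of at least 1 CPM.

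In both genotypes 24 members had a log2 fold change above 0, 3 were below 0 in both and 5 differed in sign, and in 21 of the 32 the mutant had the lower value. Each of the 11 members that rose in the control was above 0 in the mutant, with an unadjusted p under 0.05. The difference between the genotypes' responses was tested as an interaction, in which no member was called (0% of all genes), so the responses were not shown to differ.

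Averaged over the genotypes, a test that uses all 12 libraries and therefore shares them with both tests above, 16 members rose and 2 fell. The background was 14.2% of genes called up and 18.6% called down, and 27% called up among genes of at least 1 CPM. Slc30a6, Slc30a7, Slc39a3, Slc39a7 and Slc39a10 rose here beside the 11 named for the control, and Slc30a10 and Slc30a8 fell. Slc30a8 had at least 10 counts in unlesioned libraries only, so it entered the test through the group where it is high, and its fall is a description. The median log2 fold change of the members was 0.57, against -0.28 for all genes and 0.33 for genes of at least 1 CPM. In 8 members all 6 lesioned libraries exceeded all 6 unlesioned ones, where 7.44% of all genes did so, or 2293 of the 16256 genes of at least 1 CPM. Of the 16, 15 were called under each of the 20 alternatives run, and Slc39a3 was not.

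**Figure D2:**
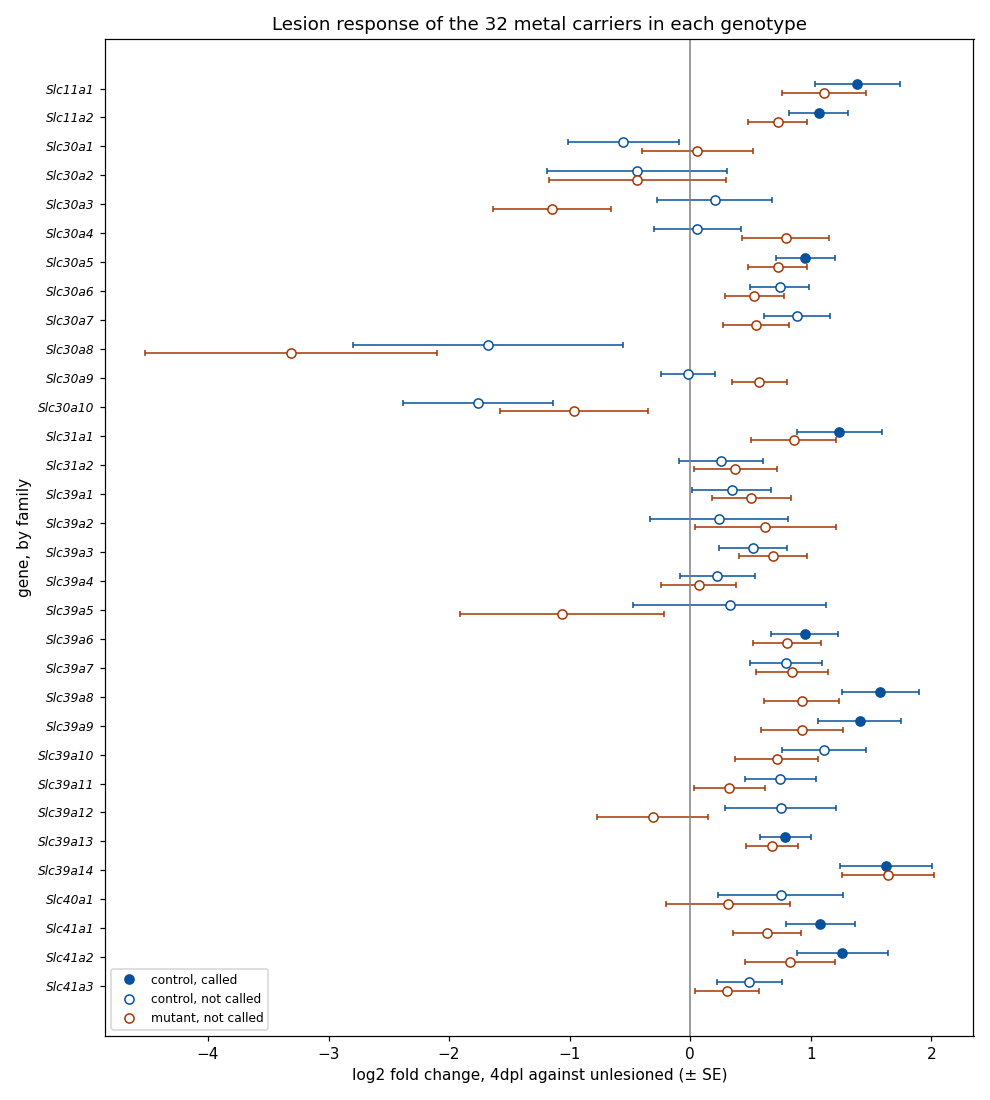
Log2 fold change at 4dpl against unlesioned (± SE) of each of the 32 members, by family, in the control (blue) and the mutant (brown), with filled points for called genes. The 11 filled points are all in the control and above 0, the mutant has none, and 24 members lie above 0 in both.

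Markers of other cells moved with these results. The 10 phagocyte markers, of which Lyz2, Apoe and Spp1 were the most abundant, summed to 16542 to 23772 CPM in control unlesioned and 54174 to 63893 CPM in control 4dpl libraries. In the mutant they summed to 12219 to 20654 CPM unlesioned and 29326 to 48497 CPM at 4dpl, with no overlap between these groups in either genotype. Of these 10 markers, 5 were called up in the control and 7 in the average, and none in the mutant. Ly6c2, a marker of inflammatory monocytes in this list, had lower means at 4dpl, 432 against 1021 CPM in the control and 619 against 933 CPM in the mutant. The 8 microglia markers summed to 2376 to 4802 CPM in control unlesioned and 7884 to 13406 CPM in control 4dpl libraries, and 2 of them were called up in the control and 6 in the average. In the mutant they summed to 2761 to 8899 CPM unlesioned and 8023 to 12257 CPM at 4dpl, and these groups overlapped. Of the oligodendrocyte progenitor markers 4 of 5 were called up in the control and of the astrocyte markers 2 of 6. Of the fibroblast and meninges markers 2 of 5 were called up there, and of the oligodendrocyte markers 1 of 10. Beside these counts, 5.12% of all genes were called up in the control and 14.2% in the average (9.76% and 27% at 1 CPM or more). No neuron, endothelial, neutrophil, erythroid or lymphocyte marker was called in the control in edgeR. In the average 1 neuron and 1 fibroblast and meninges marker were called down. Summed neutrophil markers were lower at 4dpl in the control, 19091.9 to 22778 against 33144.9 to 71259.5 CPM. In the mutant they overlapped, 14261 to 71715.5 against 19206 to 77405 CPM. The part of the cell types in the members' changes was not tested, and in bulk RNA more cells of a type cannot be told apart from more RNA per cell.

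**Figure D3:**
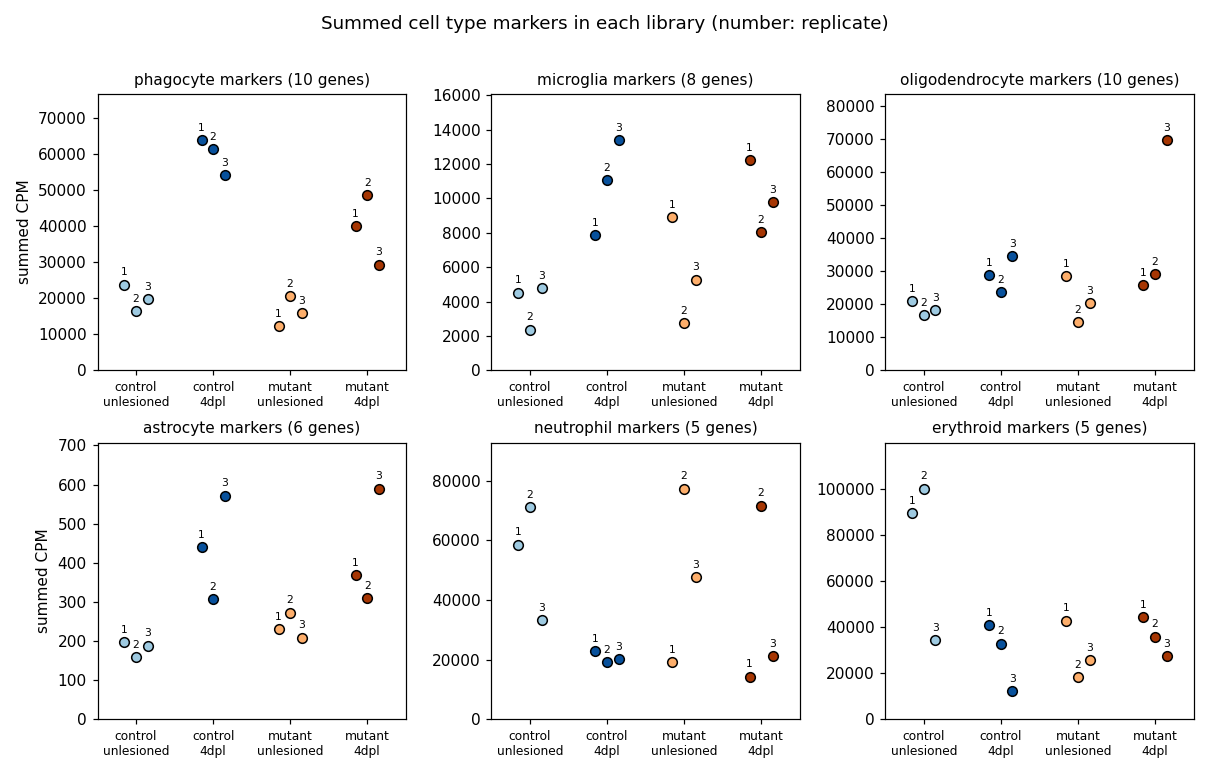
Summed CPM of the markers of 6 cell types in each library, with the replicate number beside each point. Phagocyte markers run from 16542 to 23772 CPM in control unlesioned to 54174 to 63893 CPM in control 4dpl libraries, while neutrophil markers are highest in mutant unlesioned replicate 2 at 77405 CPM.

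Among the iron and manganese carriers, Slc11a1 (NRAMP1), on chromosome 1 from 74375195 to 74386062 of GRCm38, pumps divalent metals out of the phagosomes of macrophages and neutrophils. It was at 259, 89.7 and 117 CPM in control unlesioned replicates 1 to 3 and at 466, 431 and 321 CPM in control 4dpl replicates 1 to 3, and values below follow the same order. In the mutant Slc11a1 was at 154, 124 and 122 CPM unlesioned and 337, 304 and 221 CPM at 4dpl. The groups were apart within each genotype, with control unlesioned replicate 1 above the other unlesioned libraries and above mutant 4dpl replicate 3. The log2 fold change was 1.38 ± 0.35 (SE, adjusted p = 0.0363) in the control and 1.11 ± 0.35 (SE, adjusted p = 0.0697) in the mutant. Slc11a2 (DMT1), on chromosome 15 from 100387898 to 100425072, brings ferrous iron across the plasma membrane and out of endosomes into the cytosol. It was at 32.9, 17.9 and 25.1 CPM unlesioned and 56.2, 54.04 and 48.7 CPM at 4dpl in the control, and at 32.3, 26.96 and 23.98 and 49.5, 35.4 and 52.7 CPM in the mutant. All 6 lesioned libraries lay above all 6 unlesioned ones. The rise in the control was 1.06 ± 0.25 (SE, adjusted p = 0.0307), and the mutant value 0.73 ± 0.25 (SE, adjusted p = 0.0784).

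The iron exporter Slc40a1 (ferroportin), on chromosome 1 from 45908068 to 45926523, was not called by edgeR over the 12 libraries. It was at 215, 67.9 and 57.5 CPM unlesioned and 327, 134 and 111 CPM at 4dpl in the control, where replicate 1 of each group was far above its fellows. In the mutant it was at 125, 259 and 179.5 CPM unlesioned and 229, 316 and 153 CPM at 4dpl. The groups overlapped in both genotypes, and the log2 fold change of 0.75 in the control had a 95% interval from -0.26 to 1.76. In the mutant the value was 0.31, with an interval from -0.70 to 1.32. The control value rested on 1 library: it ran from 0.13 to 1.63 when 1 library was omitted, and at 1.63, without control unlesioned replicate 1, Slc40a1 was called up in the control and, at 0.98, in the average. Voom with sample weights also called it up, at 1.198 in the control and 0.83 in the average.

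Of the copper carriers, Slc31a1 (CTR1), the main route of copper into cells, lies on chromosome 4 from 62360727 to 62391769. It was at 81.9, 23.9 and 32.01 CPM unlesioned and 111, 104 and 110.3 CPM at 4dpl in the control, and at 49.01, 42.8 and 53.2 and 97.4, 92.2 and 73.4 CPM in the mutant. The 3 lesioned control libraries were close to each other, while control unlesioned replicate 1 was well above replicates 2 and 3. In the control Slc31a1 rose by 1.24 ± 0.35 in log2 (SE, adjusted p = 0.0448) and had 0.86 ± 0.35 (SE, adjusted p = 0.114) in the mutant. The control call of Slc31a1 was lost in 8 of the 12 omissions of 1 library, with values from 0.94 to 1.98. Its neighbour Slc31a2 (CTR2), on chromosome 4 from 62262562 to 62298411, acts on copper inside the cell. It was at 132, 63.4 and 53.4 CPM unlesioned and 111, 106 and 80.1 CPM at 4dpl in the control, and at 57.6, 111 and 76.3 and 81.9, 139 and 96.7 CPM in the mutant. The groups of Slc31a2 overlapped in both genotypes, with log2 fold changes of 0.25 (95% interval -0.43 to 0.93) in the control and 0.37 (95% interval -0.31 to 1.05) in the mutant.

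**Figure D4:**
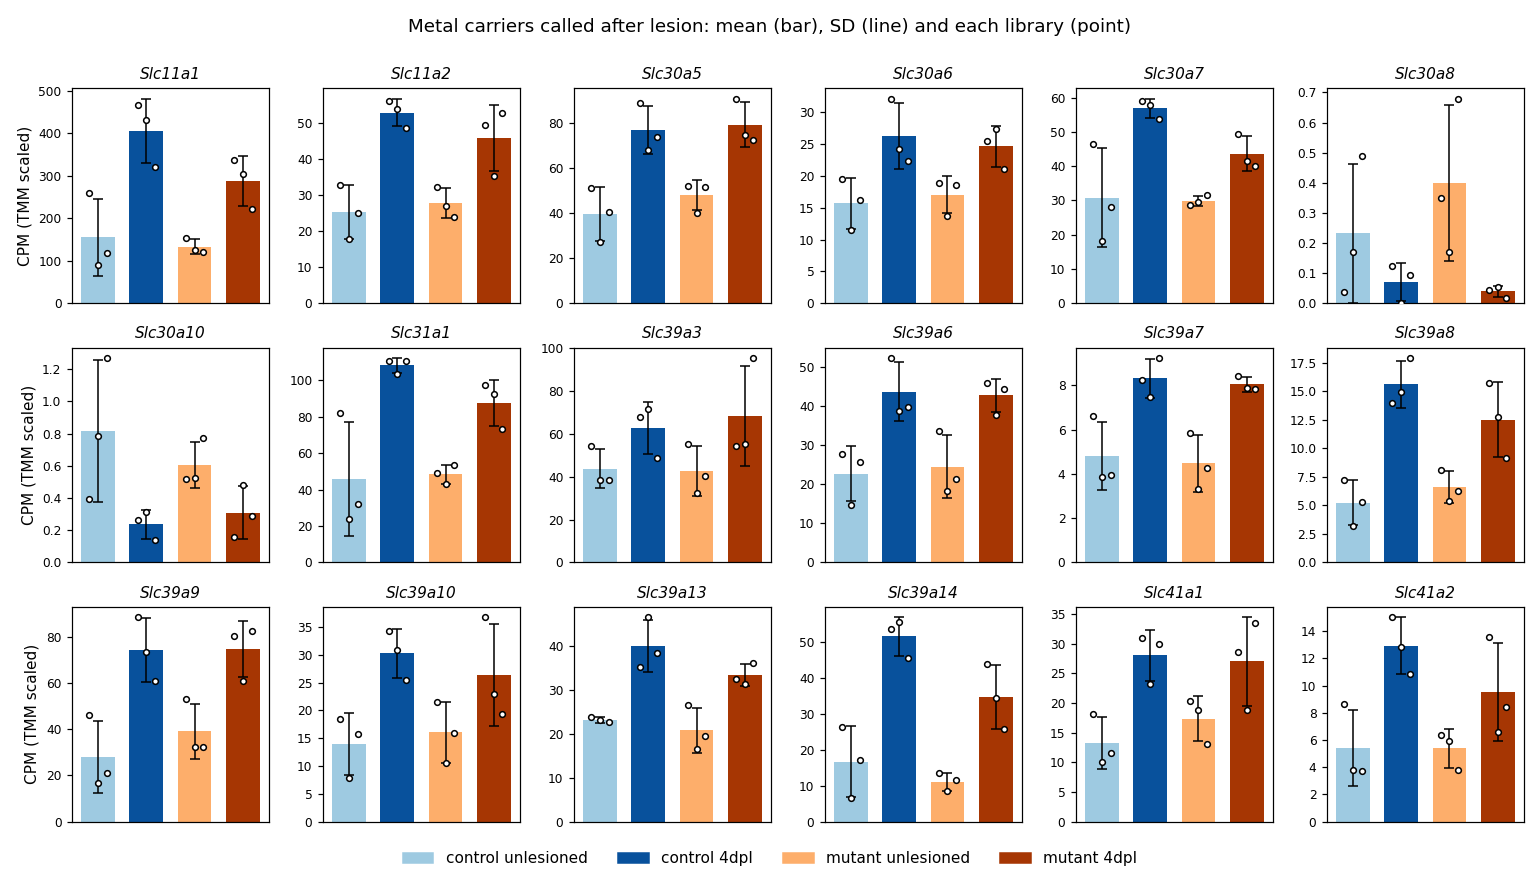
CPM of the 18 members called in the control or in the average over genotypes, with bars at the group mean, lines at 1 SD and points for the 3 libraries. All but Slc30a8 and Slc30a10 have a higher mean at 4dpl in both genotypes. Control unlesioned replicate 1 lies above the other unlesioned libraries in Slc11a1, Slc11a2, Slc30a6, Slc30a7, Slc31a1, Slc39a7, Slc39a14 and Slc41a2.

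The zinc importers, the largest family, gave the most called genes, 5 of 14 in the control and 8 of 14 in the average. Beside these, 5.12% and 14.2% of all genes were called up, or 9.76% and 27% of genes of at least 1 CPM. SLC11 and SLC41 had larger shares called up in both tests, 2 of 2 and 2 of 3, and SLC30 and SLC40 smaller ones. All 14 importers had a log2 fold change above 0 in the control. Slc39a14 (ZIP14), which also takes up iron and manganese, lies on chromosome 14 from 70303469 to 70351425. It was at 26.2, 6.71 and 17.1 CPM unlesioned and 53.6, 55.4 and 45.3 CPM at 4dpl in the control, and at 13.4, 8.46 and 11.5 and 43.7, 34.4 and 25.8 CPM in the mutant. The groups were apart within each genotype, and only mutant 4dpl replicate 3 fell just below control unlesioned replicate 1. Its log2 fold change was 1.62 ± 0.38 (SE, adjusted p = 0.0315) in the control and 1.64 ± 0.38 (SE, adjusted p = 0.0538) in the mutant, the smallest p of any member there. Slc39a8 (ZIP8), on chromosome 3 from 135825279 to 135888572, carries zinc and manganese and is the closest relative of Slc39a14. It was at 7.19, 3.23 and 5.26 CPM unlesioned and 13.99, 14.9 and 17.9 CPM at 4dpl in the control, and at 8.11, 5.42 and 6.25 and 15.7, 12.7 and 9.13 CPM in the mutant. All 6 lesioned libraries exceeded all 6 unlesioned ones. The rise was 1.58 ± 0.32 in the control (SE, adjusted p = 0.0256), the smallest p of the members, and the mutant value was 0.92 ± 0.31 (SE, adjusted p = 0.079).

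Slc39a9 (ZIP9), a carrier of the Golgi apparatus on chromosome 12 from 80643883 to 80683342, was at 45.98, 16.9 and 21.2 CPM unlesioned and 88.5, 73.3 and 60.8 CPM at 4dpl in the control. In the mutant it was at 52.9, 32.3 and 32.3 CPM unlesioned and 80.4, 60.6 and 82.5 CPM at 4dpl, and the lesioned libraries of both genotypes lay above all unlesioned ones. The rise in the control was 1.40 ± 0.34 (SE, adjusted p = 0.0347), against 0.93 ± 0.34 (SE, adjusted p = 0.0912) in the mutant. Slc39a13 (ZIP13), which works on vesicles and the Golgi apparatus and is needed in connective tissue, lies on chromosome 2 from 91061791 to 91070417. It was at 23.8, 23.1 and 22.6 CPM unlesioned and 35.1, 46.5 and 38.4 CPM at 4dpl in the control, and at 26.5, 16.4 and 19.5 and 32.5, 31.2 and 36.03 CPM in the mutant. Here the control unlesioned libraries were close to each other, and the 6 lesioned libraries were again above the 6 unlesioned ones. The values were 0.79 ± 0.21 (SE, adjusted p = 0.0404) in the control and 0.68 ± 0.21 (SE, adjusted p = 0.0704) in the mutant.

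Slc39a6 (ZIP6) and Slc39a10 (ZIP10) form a joint importer of the plasma membrane. Slc39a6 was at 27.7, 14.6 and 25.6 CPM unlesioned and 52.3, 38.8 and 39.8 CPM at 4dpl in the control, and at 33.6, 18.4 and 21.4 and 45.9, 37.8 and 44.2 CPM in the mutant. Slc39a10, on chromosome 1 from 46807544 to 46892852, was at 18.4, 7.78 and 15.8 and 34.3, 30.9 and 25.5 CPM in the control and at 21.5, 10.6 and 15.97 and 36.8, 23.002 and 19.3 CPM in the mutant, where replicate 3 of the lesioned group fell among the unlesioned values. Slc39a6 rose in the control by 0.95 ± 0.28 (SE, adjusted p = 0.048), and Slc39a10 was not called there, at 1.11 ± 0.35 (SE, adjusted p = 0.0546). Averaged over the genotypes both rose, by 0.87 (adjusted p = 0.00661) and 0.91 (adjusted p = 0.0123).

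Slc39a7 (ZIP7), which releases zinc from the endoplasmic reticulum, lies on chromosome 17 from 34028267 to 34031690 and shares 80.1% of its exon bases with the annotated gene Gm20427 on the same strand, so its counts are uncertain. It was at 6.59, 3.85 and 3.97 CPM unlesioned and 8.25, 7.47 and 9.24 CPM at 4dpl in the control, and at 5.86, 3.32 and 4.26 and 8.43, 7.86 and 7.84 CPM in the mutant, with no overlap between lesioned and unlesioned libraries. In the average Slc39a7 rose by 0.82 ± 0.21 (SE, adjusted p = 0.0106). Slc39a3 (ZIP3), of the plasma membrane, on chromosome 10 from 81028538 to 81037426, was at 54.04, 38.5 and 38.6 and 67.8, 71.3 and 48.7 CPM in the control and 55.02, 32.4 and 40.04 and 54.4, 55.3 and 95.3 CPM in the mutant. Its groups overlapped in both genotypes, mutant 4dpl replicate 3 was its highest library, and its rise in the average was 0.60 ± 0.20 (SE, adjusted p = 0.0287). That call was lost when any of 7 libraries was left out, namely control unlesioned replicate 2 or 3, control 4dpl replicate 1 or 2, mutant unlesioned replicate 2 or 3, or mutant 4dpl replicate 3, with values from 0.46 to 0.74 over the 12 omissions.

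Slc39a1 (ZIP1), on chromosome 3 from 90248172 to 90253612, and Slc39a12 (ZIP12), a zinc importer of the nervous system on chromosome 2 from 14388316 to 14494977, had the smallest p-values between unlesioned genotypes. Slc39a1 was at 6.104, 9.99 and 14.2 CPM in control unlesioned and 6.41, 4.09 and 7.32 CPM in mutant unlesioned libraries, and at 9.91, 16.4 and 12.2 and 8.93, 7.81 and 8.56 CPM at 4dpl. The unlesioned groups overlapped through control replicate 1, while at 4dpl the 3 mutant libraries lay below the 3 of the control. The mutant against control value was -0.77 (unadjusted p = 0.0347, adjusted p = 0.927) unlesioned and -0.60 (unadjusted p = 0.0856, adjusted p = 0.799) at 4dpl. Slc39a12 was at 2.03, 2.17 and 3.46 CPM in control unlesioned and 5.07, 7.41 and 3.69 CPM in mutant unlesioned libraries, with no overlap, and at 5.65, 2.76 and 4.47 and 7.68, 2.87 and 2.46 CPM at 4dpl, with overlap. Its genotype value unlesioned was 1.08 (unadjusted p = 0.0351, adjusted p = 0.927), and neither gene passed the test. The remaining importers Slc39a2, Slc39a4, Slc39a5 and Slc39a11 were not called by edgeR over the 12 libraries, and their log2 fold changes were between 0.22 and 0.75 in the control and between -1.06 and 0.62 in the mutant. Slc39a11 was called up in the control and the average by voom and without control unlesioned replicate 1, and in the average also without a filter on counts, at an adjusted p of 0.10 and without mutant unlesioned replicate 2.

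Of the 10 SLC30 members, which include the manganese exporter Slc30a10, 5 had a log2 fold change above 0 in the control and 1 was called up. In the average 3 rose and 2 fell, near the shares of all genes called there (14.2% up, or 27% among genes of at least 1 CPM, and 18.6% down). The 2 that fell were Slc30a10 and Slc30a8, which the filter admitted by its unlesioned level. Slc30a5 and Slc30a6 form a joint carrier that fills the early secretory pathway with zinc, and Slc30a7 does the same in the Golgi apparatus. Slc30a5, on chromosome 13 from 100802648 to 100833427, was at 51.2, 27.3 and 40.3 CPM unlesioned and 88.7, 67.8 and 73.6 CPM at 4dpl in the control, and at 51.8, 40.1 and 51.7 and 90.6, 74.3 and 72.3 CPM in the mutant. Slc30a6, on chromosome 17 from 74395608 to 74424221, was at 19.5, 11.5 and 16.1 and 32.1, 24.3 and 22.3 CPM in the control and 18.9, 13.7 and 18.6 and 25.4, 27.3 and 21.1 CPM in the mutant. For both genes the 6 lesioned libraries were above the 6 unlesioned ones. Slc30a5 rose in the control by 0.95 ± 0.24 (SE, adjusted p = 0.0368), and in the average Slc30a5 rose by 0.84 (adjusted p = 0.00485) and Slc30a6 by 0.64 (adjusted p = 0.0134). Slc30a7, on chromosome 3 from 115938973 to 116007406, was at 46.4, 18.1 and 27.98 CPM unlesioned and 59.1, 57.8 and 53.8 CPM at 4dpl in the control, and at 28.6, 29.6 and 31.4 and 49.4, 41.4 and 40.02 CPM in the mutant. Lesioned and unlesioned libraries were apart within each genotype, and the average rise was 0.71 ± 0.19 (SE, adjusted p = 0.0128), with 16% of its exon bases shared with genes on the opposite strand.

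The members that fell were both rare. Slc30a10, the manganese exporter of the cell surface, on chromosome 1 from 185454848 to 185468762, had 21, 37 and 65 counts in the control unlesioned and 15, 18 and 6 counts in the control 4dpl libraries. In the mutant it had 28, 28 and 34 counts unlesioned and 7, 18 and 16 counts at 4dpl. Scaled to CPM, the lesioned libraries lay below the unlesioned ones within each genotype, and the summed counts gave a 4dpl to unlesioned ratio of 0.304 in the control (95% exact interval 0.206 to 0.439) and 0.506 in the mutant (0.341 to 0.739), intervals that cover counting error only. The average fell by 1.36 ± 0.44 on the log2 scale (SE, adjusted p = 0.0253). With 1 library omitted the call was kept only without control unlesioned replicate 1, control 4dpl replicate 2 or mutant 4dpl replicate 2 and lost without any of the other 9 libraries, with values from -1.56 to -1.11. Slc30a8, the zinc carrier of insulin granules, on chromosome 15 from 52295553 to 52335798, had 2, 8 and 25 counts in the control unlesioned and 7, 0 and 4 counts in the control 4dpl libraries, and 19, 9 and 30 and 2, 2 and 1 counts in the mutant. Most of its reads were thus in replicate 3 of the unlesioned control and in replicates 1 and 3 of the unlesioned mutant, and the count of 0 allows up to 3 counts. No lesioned library reached 10 counts, so the filter admitted Slc30a8 by its unlesioned level and a fall was the direction it could show. The fitted average, -2.49 ± 0.82 (SE, adjusted p = 0.0285), depends on the handling of low counts and is given as a description, and with 1 library omitted it was called only without control unlesioned replicate 1, control 4dpl replicate 1 or mutant unlesioned replicate 2, with values from -2.81 to -1.90 over the 12 omissions.

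Slc30a1 (ZnT1), the zinc exporter of the plasma membrane and a classical target of MTF1, lies on chromosome 1 from 191906767 to 191913247. It was at 5.58, 6.78 and 6.86 CPM unlesioned and 3.64, 4.54 and 4.88 CPM at 4dpl in the control, and at 3.28, 13.5 and 4.42 and 5.14, 5.74 and 11.2 CPM in the mutant. In the control the lesioned libraries were all below the unlesioned ones, whereas in the mutant unlesioned replicate 2 and lesioned replicate 3 stood far above the rest. The log2 fold change was -0.56 (95% interval -1.46 to 0.35, adjusted p = 0.393) in the control and 0.06 (95% interval -0.84 to 0.96, adjusted p = 0.938) in the mutant, where scaling by DESeq2's size factors turned it to -0.094.

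Between the genotypes at 4dpl no member was called (0% of all genes), and the 3 smallest p-values belonged to zinc exporters. Slc30a4, which loads zinc into vesicles, on chromosome 2 from 122681233 to 122702663, was at 7.41, 6.73 and 8.57 CPM in control 4dpl and 15.6, 12.1 and 22.1 CPM in mutant 4dpl libraries, without overlap, and at 8.75, 4.65 and 8.38 and 14.2, 5.19 and 9.44 CPM unlesioned. The genotype value at 4dpl was 1.14 ± 0.37 (SE, unadjusted p = 0.00762, adjusted p = 0.419). Slc30a9, the zinc carrier of mitochondria, on chromosome 5 from 67306955 to 67358443, was at 60.002, 65.9 and 67.2 CPM in control 4dpl and 84.03, 86.7 and 109 CPM in mutant 4dpl libraries, again without overlap, and at 82.5, 51.7 and 61.4 and 73.4, 51.7 and 62.7 CPM unlesioned. Its genotype value at 4dpl was 0.53 ± 0.23 (SE, unadjusted p = 0.0333, adjusted p = 0.646). Mutant 4dpl replicate 3, where oligodendrocyte markers summed highest, was the highest library for both genes, and the part of those cells in the difference was not tested. Slc30a3 (ZnT3), which fills synaptic vesicles with zinc, on chromosome 5 from 31086106 to 31108237, was at 0.6198, 1.04 and 1.02 and 0.629, 1.3004 and 1.15 CPM in the control and at 1.16, 0.694 and 1.47 and 0.5002, 0.322 and 0.665 CPM in the mutant. Its 3 lesioned mutant libraries lay below the unlesioned ones, with a log2 fold change of -1.15 (adjusted p = 0.124) against 0.20 (adjusted p = 0.777) in the control. The interaction, -1.35 ± 0.68 (SE, unadjusted p = 0.0679, adjusted p = 1), had the smallest p of any member. Slc30a9 and Slc39a12 came next, at 0.59 (unadjusted p = 0.085) and -1.06 (unadjusted p = 0.124). Slc30a2, which carries zinc into vesicles and milk, was not called in any test or alternative.

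Over the members, edgeR called 0 of 32 between unlesioned genotypes (0% of all genes), and 2, 2 and 0 had an unadjusted p under 0.05 for the genotypes unlesioned, for the genotypes at 4dpl and for the interaction. By DESeq2 these were 2, 4 and 1 and by voom 5 each, with 0 called by either tool. Without control unlesioned replicate 1 edgeR gave 8, 5 and 7, again with 0 members called. The median of the interaction was -0.22 over the members and 0.07 over all genes. The members' median ran from -0.54 without control unlesioned replicate 1 to -0.06 without control unlesioned replicate 2.

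Of the magnesium carriers, Slc41a1, a sodium-dependent exporter of magnesium on chromosome 1 from 131827493 to 131848865, was at 18.2, 9.99 and 11.6 CPM unlesioned and 30.98, 23.1 and 29.8 CPM at 4dpl in the control. It was at 20.3, 18.8 and 13.05 and 28.6, 18.9 and 33.5 CPM in the mutant, where lesioned replicate 2 fell among the unlesioned libraries. Slc41a2, on chromosome 10 from 83230848 to 83337882, was at 8.62, 3.803 and 3.75 and 15.04, 12.9 and 10.8 CPM in the control and at 6.39, 5.96 and 3.78 and 13.6, 6.603 and 8.45 CPM in the mutant, with the groups apart within each genotype. In the control Slc41a1 rose by 1.08 ± 0.29 (SE, adjusted p = 0.0392) and Slc41a2 by 1.26 ± 0.38 (SE, adjusted p = 0.0493). In the mutant the values were 0.64 (adjusted p = 0.136) and 0.83 (adjusted p = 0.14). The other carrier, Slc41a3, a magnesium carrier of mitochondria on chromosome 6 from 90604725 to 90646412, was at 27.4, 13.8 and 15.6 CPM unlesioned and 23.6, 27.3 and 28.9 CPM at 4dpl in the control, and at 16.8, 26.05 and 21.04 and 22.4, 28.7 and 27.7 CPM in the mutant. Its groups overlapped, and its values were 0.49 (95% interval -0.04 to 1.02) in the control and 0.30 (95% interval -0.22 to 0.83) in the mutant. Slc41a3 was called up in the control and the average by voom and without control unlesioned replicate 1.

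Other genes of metal handling were read beside the carriers from lists, with none of their genes called in the mutant or between genotypes. Of 30 tested iron genes, 5 rose and 1 fell in the control and 9 rose and 1 fell in the average. Beside these counts and those of the lists that follow, 5.12% of all genes were called up in the control and 14.2% in the average, and 9.76% and 27% among genes of at least 1 CPM. Ferritin light chain Ftl1, which stores iron, was at 3122, 1607 and 2265 CPM unlesioned and 8652, 7043 and 4146 CPM at 4dpl in the control, and rose 2.84-fold (log2 SE 0.41, adjusted p = 0.0417). The endosomal iron reductase Steap3, which works beside Slc11a2, rose by 1.30 (adjusted p = 0.0401), and the iron regulatory proteins Aco1 and Ireb2 by 1.12 (adjusted p = 0.0434) and 0.81 (adjusted p = 0.0404). The mitochondrial iron carrier Slc25a28 fell by 0.94 (adjusted p = 0.0414). The transferrin receptor Tfrc had 0.20 in the control (adjusted p = 0.591), and the haem-degrading Hmox1 rose in the average by 3.26 ± 0.59 (SE, adjusted p = 0.00336). Of 7 tested genes of zinc buffering and sensing none was called in the control, where the zinc-binding metallothioneins Mt1 and Mt2 were at 0.82 (adjusted p = 0.0931) and 1.07 (adjusted p = 0.135) and the zinc sensor Mtf1 at 0.48 (adjusted p = 0.138). Tmem163, a zinc transporter of the same list, was at -1.004 (adjusted p = 0.121), its 3 lesioned control libraries lying below the unlesioned ones. Between genotypes at 4dpl Tmem163 was at 3.78, 4.51 and 4.24 CPM in the control and 10.1, 11.4 and 30.04 CPM in the mutant, without overlap, a log2 difference of 2.04 ± 0.44 (SE, unadjusted p = 0.000392, adjusted p = 0.196) that was not called. In the average the channels Mcoln1 and Trpm7 rose, by 0.86 (adjusted p = 0.00779) and 0.68 (adjusted p = 0.009). Of 12 tested copper genes, the copper pump Atp7a rose in the control by 1.25 (adjusted p = 0.0427), and 4 rose in the average, where the copper chaperones Atox1 and Ccs were at 0.55 (adjusted p = 0.0125) and 0.47 (adjusted p = 0.0223). Of 20 magnesium and manganese genes 4 rose in the control (Tusc3, Nipa2, Mmgt1 and Atp13a2, between 0.94 and 1.26), and in the average 6 rose and 1 fell. The medians of the lists in the control were 0.18 for iron, 0.78 for zinc, 0.28 for copper and -0.01 for magnesium and manganese. The median was -0.36 for all genes and 0.25 for genes of at least 1 CPM. The iron and the magnesium and manganese medians lay below this second value.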

How the data were processed

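The authors deposited raw read counts per Ensembl gene (GRCm38), which are not normalized. Their methods name BWA and featureCounts, unique reads on exons, while the labels' processing notes name STAR and DESeq2 1.2.5, and the strand setting is not given in the sources used here. Conditions came from the labels. The members and the lists of other genes were chosen with earlier results of these data known. All 12 libraries entered 1 fit of edgeR 4.0.16 under R 4.3.3 (filterByExpr, TMM, 1 mean per group, glmQLFit and glmQLFTest), and each SE is the size of the log2 difference over the root of F, with intervals of 1.96 SE. CPM were scaled by TMM. RPKM used the exon length of the deposited tables. Members shown library by library are those called in any test, those with the smallest p-values (5 per lesion test, 3 per other test) and 13 named for their roles. Alternatives were DESeq2 1.42.0, limma 3.58.1 voom with sample weights, edgeR with legacy set to false, RLE factors, other filters and thresholds, fits to the compared groups, replicate blocks and leaving out each library. The fits were tested on simulated counts, and no outcome of that is reported here. Protein sequences were not used here.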

Additional observations from a re-analysis of the deposited data

How the results depend on the processing

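With edgeR as described 11 members were called up in the control after lesion, and other settings gave 18 (voom) and 2 (only the groups compared), with 0 to 18 when 1 library was left out. The 0 called down became 1 by DESeq2, voom, the newer edgeR option and an adjusted p of 0.10, with 0 to 1 over omitted libraries. In the mutant the 0 called up became 2 by DESeq2, 10 by voom, 2 by the newer option, 1 without a filter, 9 at an adjusted p of 0.10 and 1 with only the groups compared, with 0 to 9 over omitted libraries, and the 0 called down became 1 by DESeq2, the newer option and an adjusted p of 0.10. In the average the 16 called up were 15 to 19 throughout, and the 2 called down were 1 without a filter and 0 to 2 over omitted libraries. No setting called a member between genotypes or in the interaction. RLE factors moved the median of all genes in the mutant from -0.18 to -0.32 and in the average from -0.28 to -0.38. Over the whole table, the genes called by DESeq2 were 2620 up and 4376 down in the control and 1333 up and 3962 down in the mutant, against 1592, 1558, 7 and 35, by the newer option 2229, 3719, 1374 and 3056, and by voom 4836, 4827, 3495 and 3305. Between genotypes, where edgeR called 0 genes, DESeq2 called 17 up and 28 down unlesioned and 202 up and 25 down at 4dpl, and voom 34 up at 4dpl, no member among them.

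The replicate numbers of the labels did not pair the libraries, since deviations of same-numbered libraries correlated at 0.19, 0.05 and 0.19 in the control and at -0.03, 0.07 and -0.07 in the mutant. A replicate block of the label numbers gave 14 members called up in the control, and 16 up and 0 down in the average. A replicate block of the sample-name numbers gave 12, 15 and 1. In the control this second block lost Slc39a13 and gained Slc30a7 and Slc39a10.

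Under the alternatives, 1656 values of named members kept their sign and their side of the threshold, 112 lost and 66 gained the call, and 24, none of them called, changed sign. Slc30a4 in the control became -0.0093 with only the groups compared and ranged from -0.16 to 0.24 over omitted libraries. Slc30a9 in the control became 0.18 by voom, 0.11 without a filter, and 0.0032 and 0.048 with the blocks of label and sample-name numbers, and ranged from -0.15 to 0.21. With the block of sample-name numbers Slc30a3 in the control became -0.034 and Slc40a1 in the mutant -0.17. Slc30a1 in the mutant became -0.094 by DESeq2 and with RLE factors and -0.18 with only the groups compared. Over omitted libraries it ranged from -0.35 to 0.95, in the average Slc30a1 ranged from -0.44 to 0.21 and Slc39a12 from -0.11 to 0.38, and Slc39a14 between unlesioned genotypes became 0.10 by voom. The cause was not tested. Each group held 3 libraries, and Slc30a8 and Slc30a10 also had few counts.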
